A study of Mus musculus with 12 samples.

Results

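The polysome-to-input ratio of a gene is the level of its RNA on synaptosomal polyribosomes divided by its level in the synaptosomal RNA they were isolated from, and its difference between transgenic and wild-type mice is described here. For each library number, the log2 of the polysome value plus 1 minus the log2 of the input value plus 1 was taken, and the 3 ratios of Shank3 transgenic (TG) mice were set against the 3 ratios of wild-type (WT) mice. A gene was included when its value reached 10 in at least 3 of the 12 libraries, which 16962 of the 21492 genes of the deposited table did. All 12 of the 12 samples of the series entered the comparison.

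Striatal tissue was taken from C57BL/6J males aged 70 postnatal days. There were 4 groups of 3 libraries: WT synaptosomal input, WT synaptosomal polysome, Shank3 TG input and Shank3 TG polysome. The construct and promoter of the transgene, the number of founder lines, and whether tissue of several animals was pooled were not given in the sources used here. No label ties the libraries of a group to different animals. The p-values therefore reflect the spread among these particular samples, part of which may be technical.

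Synaptosomes are pinched-off nerve terminals, often with a piece of the facing postsynaptic membrane, that reseal when brain tissue is homogenized. A transcript that carries several ribosomes at once sediments as a polyribosome, so the ratio of polyribosomal to total RNA is commonly used as a readout of how much of a transcript is engaged in translation. Shank3 is a scaffold protein of the excitatory postsynaptic density that links glutamate receptor complexes, through Dlgap and Homer proteins, to the actin cytoskeleton, and it is the Shank protein most typical of striatal projection neurons.

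The input libraries held an estimated 62.0 to 85.4 M reads each, and the polysome libraries 76.9 to 102.6 M. One input read corresponded to 1.27 to 1.81 units of the normalized count and one polysome read to 0.610 to 0.840, which makes low input values the coarser of the pair. Mitochondrial rRNA took 39.1% to 46.8% of the signal of input libraries and 23.1% to 34.0% of that of polysome libraries. The 21 medium spiny neuron markers, which mark the striatal projection neurons, were all detected, and their summed value was 386800 to 816200 in WT input and 456600 to 914500 in TG input. The 16 cortical excitatory markers summed to 87940 to 136400 and to 84120 to 132200 in the same groups.

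The ratio was not detectably different between the genotypes for any gene. With limma and Benjamini-Hochberg adjustment, 0 of 16962 genes (0%) passed the threshold of 0.05, and the smallest adjusted p was 1. At an unadjusted p below 0.05 there were 209 genes, of which 99 (0.584%) had a higher and 110 (0.649%) a lower ratio in TG. Together they are 1.23% of the genes tested, fewer than a threshold of 0.05 would pass if no gene differed and the model held. The p-values thus appear conservative, so the absence of called genes is weak evidence that the ratios are equal. Why they appear so was not tested. Without the pairing of input and polysome libraries, limma called 0 genes and left 94 at an unadjusted p below 0.05, and with the library number as a block across the genotypes it called 0 and left 456. The 3 TG ratios lay above all 3 WT ratios in 404 genes (2.38%) and below them in 292 genes (1.72%). The median difference over all genes was 0.016 on the log2 scale, the 5th and 95th percentiles were -0.54 and 0.50, and 54.1% of the genes had a higher mean ratio in TG.

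Genes kept much of their order of ratios between the genotypes. Across genes, the mean ratios of the genotypes had a Pearson correlation of 0.83 and a Spearman correlation of 0.84. Genes are not independent replicates, and whether all libraries share one normalization was not given in the sources used here. In 238 genes all 3 WT ratios lay below -1, meaning a polysome level under the input level by more than 2-fold, and in 287 genes all 3 TG ratios did. These sets had 166 genes in common, which is 69.7% of the WT set and 57.8% of the TG set. The genes chosen in WT had a median ratio of -1.63 there and of -1.60 in TG. On the polysome-rich side the overlap was smaller, with all 3 ratios above 1 in 130 genes in WT and 86 in TG, 28 of them shared (21.5% and 32.6%). The median of the 130 genes was 1.65 in WT, where they were chosen, and 1.52 in TG.

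**Figure D1:**
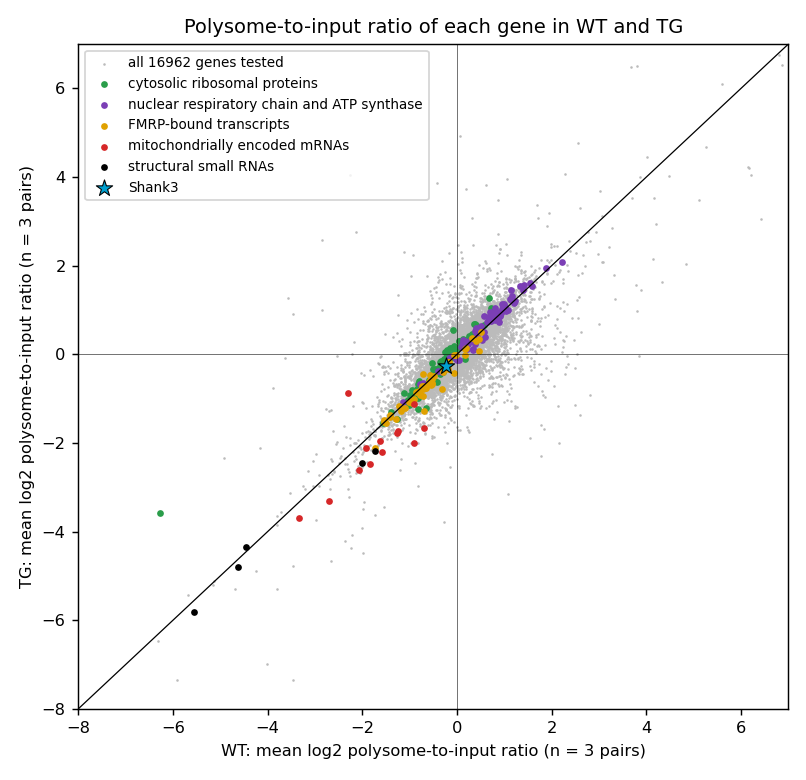
Mean log2 polysome-to-input ratio of each of 16962 genes in WT (horizontal axis) and TG (vertical axis), each a mean of 3 ratios, with 5 gene lists in color, Shank3 as a star, and the line of equal ratios. Genes scatter along the line (Pearson correlation 0.83), structural small RNAs and mitochondrially encoded mRNAs lie low in both genotypes, and 13 genes fall outside the axes, all of them with over 50% shared sequence.

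The spread between ratios sets what could be seen. The median standard error of the difference was 0.25 on the log2 scale, and the 95% interval lay within a 2-fold change in either direction for 12294 genes (72.5%) and within 1.5-fold for 6006 genes (35.4%). Precision followed the level of the gene. For genes with a mean log2 level above 11 the median standard error was 0.20 and 98.1% of intervals lay within 2-fold, whereas for genes between 3 and 5 the standard error was 0.66 and 0.271% did. A single gene standing alone at the median standard error would have needed a difference of 2.42, or 5.34-fold, to pass the adjustment. Only 579 genes (3.41%) had an estimated difference beyond 2-fold, and 489 of these had a mean log2 level below 5.

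Ratios varied with the library number. The standard deviation of the log2 ratio over all genes was 0.70, 0.86 and 0.99 in WT numbers 1, 2 and 3, and 0.69, 0.86 and 1.05 in TG numbers 1, 2 and 3. Across genes, the ratios of WT number 3 and TG number 3 correlated most closely (0.71), ahead of every pair within a genotype (0.48 to 0.57). In 31 of the 32 gene lists examined, the range of the list median over the 3 library numbers exceeded the gap between the 2 genotypes, a range over more values than the gap. The exception was the mTORC1 pathway list, with a range of 0.059 and a gap of 0.095. This gap is between genotype means of the list median. The median of the gene differences, used for lists below, was 0.016 there, with 19 members higher and 18 lower. What the library numbers denote was not given in the sources used here.

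**Figure D2:**
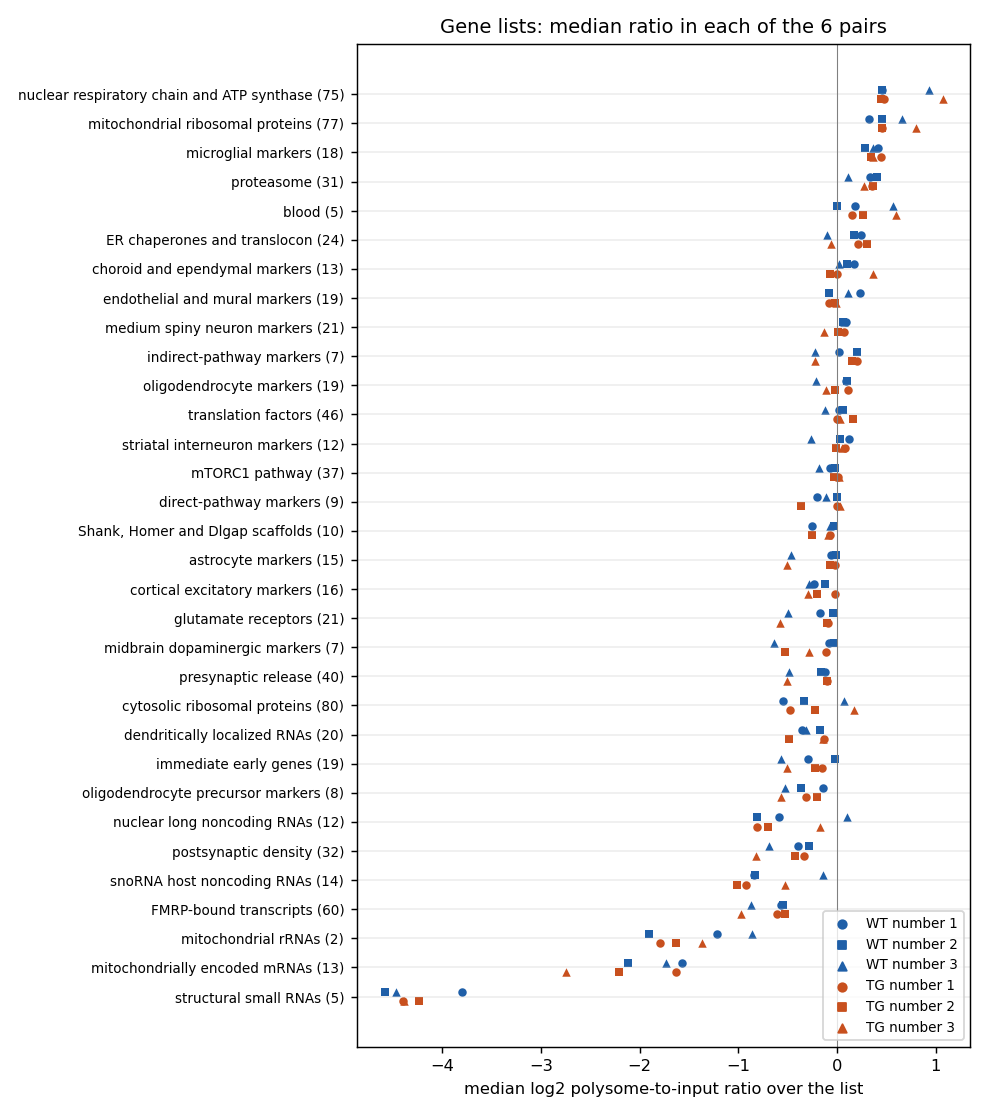
Median log2 polysome-to-input ratio of 32 gene lists (number of genes tested in brackets) in each of the 3 WT (blue) and 3 TG (orange) pairs of libraries, with a marker shape for each library number. Points of the same shape in the 2 colors lie close together in most lists, and number 3 stands apart for cytosolic ribosomal proteins (0.068 in WT and 0.18 in TG) and for the nuclear-encoded respiratory chain (0.94 and 1.07).

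Shank3 (ENSMUSG00000022623, a protein-coding gene on chromosome 15, 89499623 to 89560261 of GRCm38, plus strand) was the targeted gene and checks the labels. Its normalized counts were 2121, 4162 and 5858 in WT input numbers 1, 2 and 3, and 5456, 17500 and 14107 in TG input. On polysomes they were 1501, 3702 and 5848 in WT against 5012, 12626 and 12252 in TG. Every TG library exceeded the WT library of the same number and fraction, by 2.57, 4.20 and 2.41-fold in input and by 3.34, 3.41 and 2.10-fold on polysomes, although TG number 1 lay below WT number 3 in both fractions.

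No difference in the Shank3 ratio was detectable. The value is given per gene, so RNA of the transgene and of the endogenous gene cannot be told apart in TG libraries. The log2 polysome-to-input ratio of Shank3 was -0.50, -0.17 and -0.0024 in WT, and -0.12, -0.47 and -0.20 in TG. The ratios of the genotypes overlapped, with means of -0.22 ± 0.25 and -0.27 ± 0.18 (SD, n = 3 each). The difference was -0.042 ± 0.19 (SE), and its 95% interval ran from -0.47 to 0.38, or 0.723 to 1.3-fold. In the exact two-sided permutation test of 3 against 3 ratios p was 0.8, where the smallest value this design allows is 0.1, and the adjusted p of limma was 1. The genotype difference was 1.57 in input and 1.53 on polysomes on the log2 scale. The sign of this small difference depended on single libraries: it was 0.069 without WT number 3 and 0.061 without TG number 2. Leaving out both genotypes' number 1 gave -0.25, number 2 gave 0.088 and number 3 gave 0.037.

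**Figure D3:**
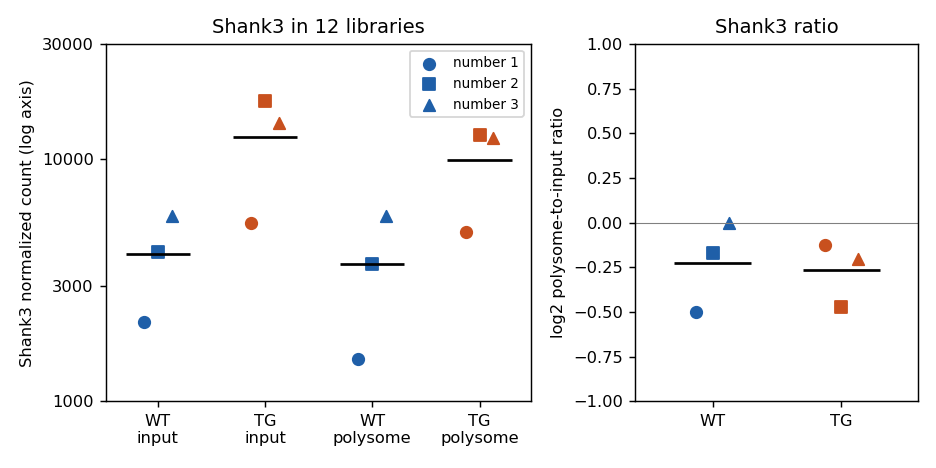
Shank3 normalized count in the 12 libraries (left, log axis) and the log2 polysome-to-input ratio of the 6 pairs (right), in blue for WT and orange for TG, with a marker shape for each library number and a line at the mean of 3. TG libraries lie above the WT library of the same number in both fractions, and the ratios overlap, with means of -0.22 and -0.27.

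Among genes whose mean log2 level was 5 or more and whose genotypes did not overlap, the 10 with the smallest p in the direction of a higher ratio in TG had differences of 0.54 to 1.37 and unadjusted p of 0.00196 to 0.015. None passed, and each had an adjusted p of 1 with limma. In all 10 the TG mean was lower than WT in input and higher on polysomes, and the input difference was the larger in size in all 10. Over all genes tested, the genotype differences in input and polysome had opposite signs in 42.4%, and the input difference was the larger in 53.8%. These components share libraries with the ratio that chose the genes, so they describe the 10 genes and are not separate support.

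Rps6kb2 (chromosome 19, 4153991 to 4163354, minus strand) encodes S6 kinase 2, a kinase downstream of mTORC1 that phosphorylates ribosomal protein S6. Its normalized counts in input were 191.6, 139.8 and 195 in WT against 113.1, 74.58 and 64.16 in TG. On polysomes they were 147.5, 137.8 and 157.5 in WT against 158.8, 173.7 and 183.2 in TG. In both fractions the genotypes did not overlap, in opposite directions. The log2 ratios were -0.37, -0.020 and -0.31 in WT against 0.486, 1.208 and 1.499 in TG, a difference of 1.298 ± 0.306 (SE). The genotype difference was -1.08 in input and 0.22 on polysomes.

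Eif5b (chromosome 1, 37998010 to 38055579, plus strand) encodes the GTPase that helps join the ribosomal subunits at the start of translation. Its input values were 1620, 1713 and 1555 in WT against 1474, 1032 and 891.7 in TG. Its polysome values were 1755, 1466 and 1231 in WT against 1614, 1953 and 1486 in TG, which overlapped. The log2 ratios were 0.12, -0.22 and -0.34 in WT against 0.13, 0.92 and 0.74 in TG. The TG number 1 ratio exceeded the WT number 1 ratio by a narrow margin, and the difference was 0.74 ± 0.24 (SE).

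Nfxl1 encodes a zinc finger protein of the NFX1 family. Its input values were 150.1, 199.4 and 215.7 in WT against 102.2, 106.8 and 94.39 in TG, while its polysome values stayed between 115.9 and 137.4 in all 6 libraries. The ratio difference was 0.92 ± 0.25 (SE), made up of -0.88 in input and 0.046 on polysomes. Cavin1, a coat protein of caveolae, had input values that did not overlap either, at 122.4, 108.6 and 111.2 in WT against 79.24, 74.06 and 78.05 in TG, while its polysome values, 88.93, 93.82 and 65.27 in WT and 91.05, 92.25 and 144.3 in TG, did. Its ratio difference of 0.94 ± 0.30 (SE) was made up of -0.56 in input and 0.38 on polysomes.

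The other 6 genes were Zfp964, a zinc finger gene (difference 0.96 ± 0.25, SE), Fbxw17, an F-box gene (0.75 ± 0.23), Stat4, a transcription factor of cytokine signaling (1.37 ± 0.43), Rprd1b, whose product binds the tail of RNA polymerase II (0.63 ± 0.20), Mob3b, of the MOB kinase activator family (0.86 ± 0.29), and Ddx19a, an RNA helicase (0.54 ± 0.18). Rprd1b had the lowest ratios of the 10 in both genotypes, at -2.76, -2.98 and -3.39 in WT and -2.41, -2.54 and -2.31 in TG. Its RNA was therefore scarce on polysomes relative to input in every pair. Stat4 had the lowest level, with input values of 65.25, 36.28 and 54 in WT and 49.32, 11.48 and 27.12 in TG, which overlapped. Stat4 and Ddx19a share 23.7% and 32% of their 31-base sequences with other genes, so part of their values is uncertain.

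The 10 genes of smallest p in the direction of a lower ratio in TG had differences of -2.39 to -0.66 and unadjusted p of 0.00181 to 0.0116. None passed, with an adjusted p of 1 in limma. In all 10 the TG mean was higher than WT in input and lower on polysomes, with the larger difference in input. The values without pairing were less stable here, since 4 of the 10 had an unadjusted p above 0.05 in that fit, up to 0.374, against 2 of the 10 genes in the other direction, up to 0.0974.

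Baiap2l2 (chromosome 15, 79258195 to 79285537, minus strand) encodes a protein with an inverse-BAR domain, a fold that bends membranes. Its input values were 36.3, 24.12 and 23.61 in WT against 60.74, 69.52 and 88.77 in TG. Its polysome values were 45.38, 94.24 and 49.41 in WT against 44.09, 31.66 and 40.28 in TG. The genotypes did not overlap in either fraction. The log2 ratios were 0.31, 1.92 and 1.04 in WT against -0.45, -1.11 and -1.12 in TG, a difference of -1.99 ± 0.46 (SE).

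Lhcgr, the receptor for luteinizing hormone, had log2 ratios of 0.49, 0.97 and 1.56 in WT and -0.97, -0.30 and -0.37 in TG. Its input values were 35.87, 54.71 and 27.13 in WT against 51.69, 99.78 and 115.5 in TG, and overlapped. Spink10, of the Kazal-type protease inhibitor family, had log2 ratios of 0.037, 0.94 and 2.71 in WT and -0.16, -2.40 and -0.91 in TG. The estimate for Spink10, -2.39 ± 0.70 (SE), was the largest in size of the 20 genes and had the widest spread within a genotype.

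Mup19, a major urinary protein gene, and Apob, the apolipoprotein of low-density lipoprotein, are genes of liver. Each had a high polysome value in WT number 1, 478.3 for Mup19 and 774.8 for Apob, against at most 71.45 and 49.71 in the other WT polysome libraries. Mup19 was listed at 0 in WT number 3 input and 100% of its sequence is shared, which leaves its value uncertain. The ratio differences were -2.19 ± 0.59 for Mup19 and -1.92 ± 0.53 for Apob (SE), and the p without pairing was 0.374 and 0.276.

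The remaining 5 genes had mean log2 levels of 7.17 (Hemk1) to 10.39 (Lyrm9). Cln3, a lysosomal membrane protein whose loss causes a childhood neurodegenerative disease, had input values of 393.1, 365.4 and 290.9 in WT and 409.5, 581 and 640.1 in TG, and polysome values between 490 and 635.4 in all 6 libraries. Its ratio difference was -0.66 ± 0.21 (SE), of which 0.62 was in input and -0.036 on polysomes. Zfhx3, a homeodomain transcription factor, had log2 ratios of -0.63, -0.53 and -0.56 in WT and -1.01, -1.51 and -1.16 in TG. Hemk1, a methyltransferase, Tyw3, an enzyme of tRNA modification, and Lyrm9, a small LYR-motif protein, had differences of -1.25 ± 0.35, -0.89 ± 0.27 and -1.12 ± 0.34 (SE).

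**Figure D4:**
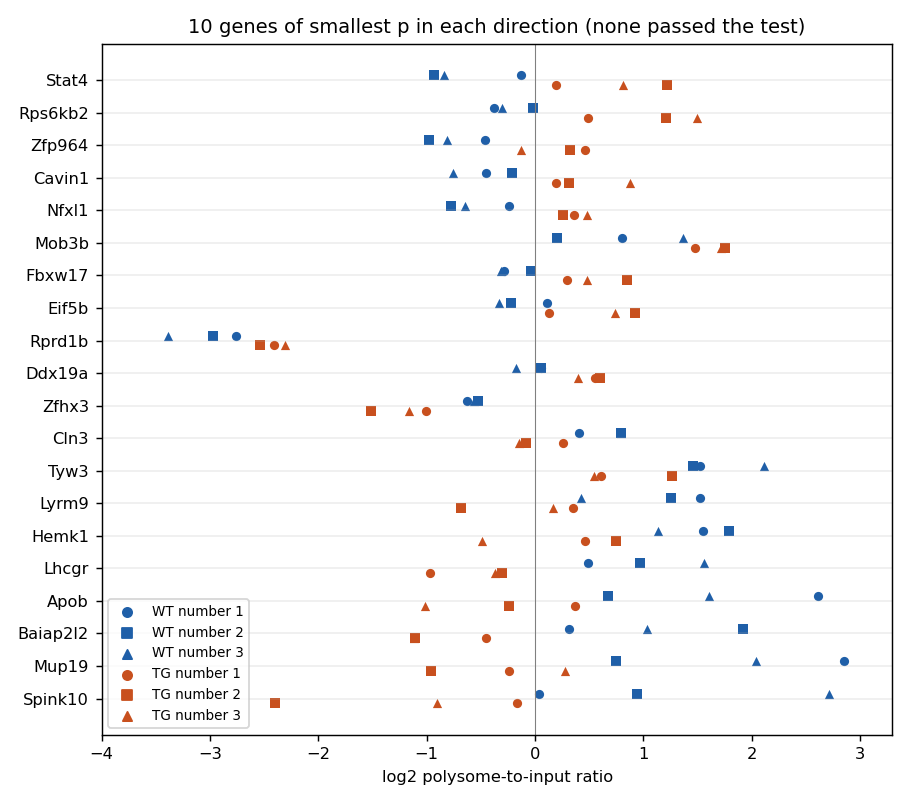
Log2 polysome-to-input ratio of 20 genes in each of 3 WT (blue) and 3 TG (orange) pairs of libraries, with a marker shape for each number. The genes were chosen for a small p and no overlap, so the separation of the colors is a result of the choice, and none of them passed the adjustment (adjusted p of 1 in limma).

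The translation machinery was examined as 3 lists. Cytosolic ribosomal protein mRNAs, which carry a pyrimidine tract at their start that couples them to mTORC1, were higher in 66 of 80 members by a median of 0.11, beside 54.1% higher and a median of 0.016 over all genes. None of the 80 was called, none had an unadjusted p below 0.05 and none was free of overlap. The median log2 ratio of the list was -0.55, -0.33 and 0.068 in WT numbers 1, 2 and 3, and -0.47, -0.22 and 0.18 in TG. Within each number the TG value was the higher, and numbers 1 and 3 of a genotype lay farther apart than the genotypes did. The list median of the difference was -0.048 without TG number 3. The widest estimate was that of Rps27, whose polysome values were 229.5, 34.58 and 29.58 in WT against 364.8, 63.65 and 2661 in TG. Its difference of 2.68 ± 1.31 (SE) came with 1 high library, and 27.6% of its sequence is shared.

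Of 46 translation factors, 27 had a higher ratio in TG and 19 a lower one, with a median of 0.027 that was -0.020 without TG number 2. Eif5b was the single member at an unadjusted p below 0.05 and the single one without overlap. Over all genes tested, 0.584% had such a p with a higher ratio in TG, and 2.38% had non-overlapping ratios higher in TG. Of the 37 members of the mTORC1 pathway, which senses nutrients and growth factors and controls translation, 19 were higher and 18 lower, with a median of 0.016. Rps6kb2 was again the single member at an unadjusted p below 0.05. Mtor, the kinase itself, had a difference of -0.025 ± 0.24 and Rptor, its partner in complex 1, one of -0.080 ± 0.20 (SE).

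Some of the synaptic lists had medians slightly below 0. Over all genes tested the median was 0.016, and 54.1% had a higher mean ratio in TG. Of 60 mRNAs bound by FMRP, the RNA-binding protein lost in fragile X syndrome, 47 had a lower ratio in TG, with a median difference of -0.063. Of 32 postsynaptic density genes 26 were lower, with a median of -0.043, of 20 dendritically localized RNAs 17 were lower, with a median of -0.066, and of 10 Shank, Homer and Dlgap scaffolds 9 were lower, with a median of -0.054. No member of these lists was called or had an unadjusted p below 0.05, and the lists share members. The signs were not stable: without TG number 3 the median was 0.039 for FMRP-bound and 0.065 for postsynaptic density mRNAs, and without TG number 2 it was 0.015 for dendritic RNAs, whereas that of the scaffolds stayed between -0.16 and -0.014 in the 19 alternatives. Of these alternatives, the other pairings and the fit without the variance trend cannot change a median.

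Shank1, a second Shank scaffold and a dendritic mRNA, had the smallest p of its lists. Its input values were 1301, 985.7 and 6077 in WT against 1375, 2179 and 7603 in TG, and its polysome values were 1522, 1241 and 10984 in WT against 1438, 2371 and 7684 in TG. The log2 ratios were 0.23, 0.33 and 0.85 in WT against 0.065, 0.12 and 0.015 in TG. They did not overlap, and the difference was -0.40 ± 0.20 (SE, interval -0.85 to 0.041), which did not pass. In every group number 3 had the highest Shank1 value.

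Kif5a, a kinesin motor, was the other dendritic RNA without overlap, at -1.36, -1.40 and -1.24 in WT and -1.58, -1.65 and -1.48 in TG, a difference of -0.24 ± 0.17 (SE). These are 2 of 20 dendritic RNAs, beside 1.72% of all genes tested with non-overlapping ratios lower in TG. Shank2 had a difference of -0.12 ± 0.19, Homer1 of 0.038 ± 0.16 and Dlg4, which encodes PSD-95, of -0.10 ± 0.20. Camk2a, the abundant kinase of the density, had lower levels on polysomes than in input in all 6 pairs, at -0.61, -0.80 and -0.95 in WT and -0.75, -0.85 and -1.16 in TG.

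Glutamate receptors, presynaptic release genes and immediate early genes showed no common direction. Of 21 glutamate receptors 12 were higher, with a median of 0.035 and the smallest p at Grin2d, an NMDA receptor subunit (0.29 ± 0.22). Of 40 release genes 20 were higher, with a median of -0.0043 that was 0.012 under scaling to the nuclear-encoded total, and the smallest p at Slc17a6, a vesicular glutamate transporter (0.19 ± 0.21). Of 19 immediate early genes 7 were higher, with a median of -0.050 and the smallest p at Egr1 (-0.20 ± 0.19). The 95% interval lay within a 2-fold change for 21 of 21, 40 of 40 and 18 of 19 genes. In the 19 alternatives the medians ranged from -0.086 to 0.18, from -0.091 to 0.12 and from -0.19 to 0.042, so each changed sign.

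The mRNAs encoded by the mitochondrial genome, which are translated by mitochondrial and not cytosolic ribosomes, were low on polysomes in both genotypes. Their median log2 ratio was -1.57, -2.12 and -1.73 in WT numbers 1, 2 and 3, and -1.63, -2.21 and -2.74 in TG. In 12 of the 13 the mean ratio was lower in TG, with a median difference of -0.51, the farthest from 0 of the 32 lists, yet none was called, none had an unadjusted p below 0.05 and none was free of overlap. The median difference within a number was -0.00073, -0.39 and -1.16 for numbers 1, 2 and 3, so that the gap was near 0 in number 1 and widest in number 3. It had the same sign in the 19 alternatives, some of which cannot change it, from -0.91 to -0.19. The median genotype difference was 0.051 in input and -0.49 on polysomes.

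Shared sequence makes 7 of the 13 uncertain, each with over 50% of its sequence in common with other annotated genes. The source of the shared sequence was not tested. The 6 others, mt-Nd1, mt-Nd2, mt-Nd5, mt-Nd6, mt-Cytb and mt-Atp8, all had a lower mean ratio in TG, with a median of -0.51. In these 6 TG was below WT in 1 gene for number 1, in 6 for number 2 and in 6 for number 3. In the 7 with over 50% shared sequence, TG was below WT in 6, 2 and 6 genes for numbers 1, 2 and 3. The 2 parts of the list thus differed in numbers 1 and 2. mt-Nd1, a subunit of complex I with no shared sequence, had log2 ratios of -2.49, -3.19 and -2.42 in WT and -2.58, -3.71 and -3.66 in TG, a difference of -0.62 ± 0.33 (SE). The exception to the direction was mt-Co3, whose difference was 1.43 ± 0.65 (SE) and 99.9% of whose sequence is shared. Its input value was 63002 in TG number 3 against 323546 to 697930 in the other 5 input libraries. The rRNAs of the mitochondrial ribosome, mt-Rnr1 and mt-Rnr2, had differences of -0.30 ± 0.37 and -0.26 ± 0.42 (SE).

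**Figure D5:**
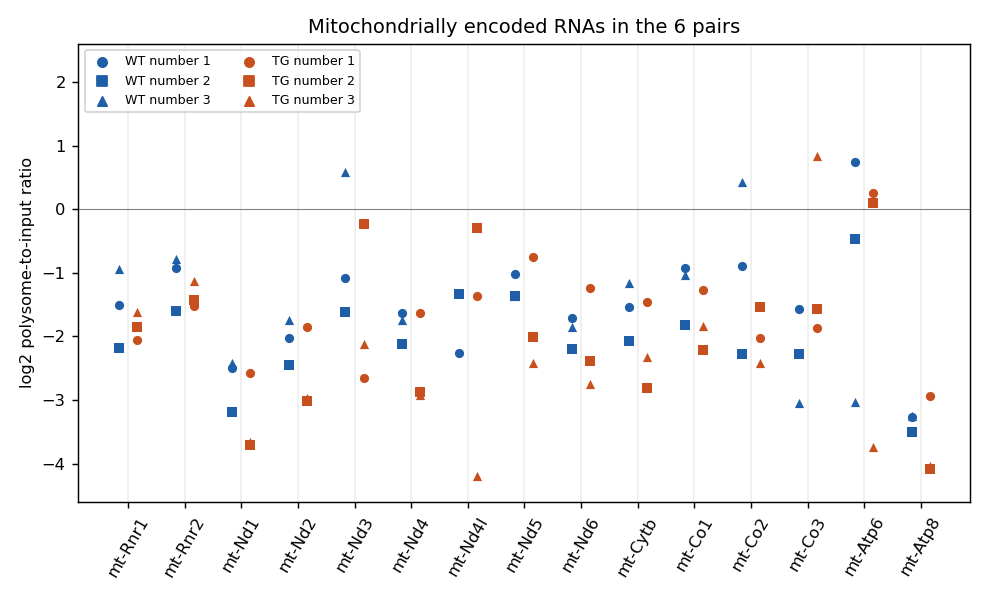
Log2 polysome-to-input ratio of 2 mitochondrial rRNAs and 13 mitochondrially encoded mRNAs in each of 3 WT (blue) and 3 TG (orange) pairs of libraries, with a marker shape for each number. Most points lie below 0, and for mt-Nd1 the TG points of numbers 2 and 3 (-3.71 and -3.66) lie below every WT point whereas that of number 1 (-2.58) lies among them.

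Nuclear genes for mitochondrial proteins lay on the opposite side of 0 in both genotypes. The 75 nuclear-encoded subunits of the respiratory chain and ATP synthase had a median log2 ratio of 0.46, 0.46 and 0.94 in WT and 0.48, 0.45 and 1.07 in TG. Of these, 47 were higher in TG with a median of 0.060, which was -0.14 without TG number 3 and -0.053 without WT number 1. Of 77 mitochondrial ribosomal proteins 54 were higher with a median of 0.053, which was -0.059 without TG number 3. Neither list had a called member or one with an unadjusted p below 0.05, and 69 of 75 and 71 of 77 intervals lay within 2-fold. Atp5c1, a subunit of ATP synthase, and Mrpl24 and Mrpl39 of the mitochondrial ribosome were the 3 members without overlap, a share close to the 2.38% of all genes with non-overlapping ratios higher in TG, with differences of 0.13 ± 0.15, 0.21 ± 0.17 and 0.19 ± 0.16 (SE).

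Of 31 proteasome genes 24 had a higher ratio in TG, with a median of 0.12, and of 24 chaperones and translocon genes of the endoplasmic reticulum 20 did, with a median of 0.081. No member was called, had an unadjusted p below 0.05 or was free of overlap. The proteasome median kept its sign in the 19 alternatives, some of which cannot change it, from 0.015 to 0.21. That of the endoplasmic reticulum was -0.021 without WT number 3. Psma3, a proteasome subunit, had the smallest p of the proteasome list, with log2 ratios of 0.15, 0.022 and -0.19 in WT and 0.35, 0.11 and 0.49 in TG. Sdf2l1, a luminal chaperone component, had a difference of 0.22 ± 0.18 (SE).

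Several noncoding RNAs had low polysome-to-input ratios in both genotypes. Bc1, a small cytoplasmic RNA of dendrites that inhibits translation, had mean log2 ratios of -5.57 in WT and -5.82 in TG. Rn7sk, a regulator of transcription elongation, had -4.46 and -4.34, and Rpph1, the RNA of ribonuclease P, -4.63 and -4.80. Shared sequence makes their absolute levels uncertain, at 40.6%, 72.8% and 70.2%. The 5 structural small RNAs had a median difference of -0.26, which was 0.18 without WT number 1. Among 12 nuclear long noncoding RNAs, 5 were higher and 7 lower, with a median of -0.17 that was 0.11 without WT number 3. Malat1, an abundant nuclear RNA, had log2 ratios of -1.38, -2.07 and -0.65 in WT and -1.84, -2.19 and -1.31 in TG, and Rmst had -2.74, -3.24 and -2.78 in WT and -2.53, -2.85 and -2.83 in TG. The 14 snoRNA host genes had 5 members higher and a median of -0.088, which was 0.092 without WT number 3, 0.021 without TG number 1 and 0.083 without TG number 2. Neat1 and Snhg20, the members of smallest p in their lists, did not have low ratios, with means of -0.079 and 0.12 in WT and 0.72 and 0.67 in TG. Low ratios were not general in the nuclear list, whose median ratio was 0.10 in WT number 3 and -0.17 in TG number 3.

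Cell type markers showed no called member in any list. In bulk samples, fewer cells of a type and less RNA per cell cannot be told apart, and a ratio of fractions does not separate them either. Medium spiny neuron markers had 11 of 21 members higher with a median of 0.025, and all 21 intervals lay within 2-fold. Their median changed sign with left-out libraries, to -0.068 without WT number 3. Drd1, the dopamine receptor of the direct pathway, had log2 ratios of 0.14, 0.23 and 0.19 in WT and 0.21, 0.43 and 0.29 in TG, a difference of 0.12 ± 0.16 (SE). Drd2, the receptor of the indirect pathway, had 0.033 ± 0.093 (SD, n = 3) in WT and -0.21 ± 0.41 in TG, a difference of -0.24 ± 0.22 (SE). The direct-pathway list had 4 of 9 and the indirect-pathway list 4 of 7 members higher, with medians of -0.0017 (0.014 under scaling to the nuclear-encoded total) and 0.077.

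Among the other cell types, the median difference was -0.015 for cortical excitatory neurons (8 of 16 higher, and 0.00098 under that scaling), 0.026 for striatal interneurons (7 of 12) and -0.036 for midbrain dopaminergic neurons (3 of 7). It was -0.017 for astrocytes (6 of 15), -0.013 for oligodendrocytes (9 of 19, and 0.0030 under that scaling), -0.048 for their precursors (3 of 8) and 0.050 for microglia (12 of 18). It was -0.066 for endothelial and mural cells (7 of 19), -0.097 for choroid plexus and ependyma (6 of 13) and 0.11 for blood (4 of 5). Most of these signs rested on single libraries: the interneuron median was -0.135 without WT number 3, the dopaminergic one ranged from -0.237 to 0.125 and the astrocyte one from -0.129 to 0.118. Of all 32 lists, 6 kept the sign of their median in the 19 alternatives, some of which cannot change a median. They were mitochondrially encoded mRNAs, mitochondrial rRNAs, the proteasome, Shank, Homer and Dlgap scaffolds, and the microglial and the endothelial and mural markers. Microglial markers had ratios above 0 in every pair, with list medians of 0.41, 0.29 and 0.36 in WT and 0.45, 0.34 and 0.36 in TG. The single marker at an unadjusted p below 0.05 was Prlr, the prolactin receptor, of the choroid list, with log2 ratios of 0.75, 0.10 and -0.69 in WT and -0.33, -1.43 and -0.85 in TG, which overlapped. The summed choroid markers varied from 1182 to 11340 within WT input and from 1494 to 17400 within TG input, and their part in the Prlr value was not tested.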

How the data were processed

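Per the labels' protocols, a strand-preserving total RNA kit was used, and RNA without a poly(A) tail is included. The authors deposited 1 table of normalized estimated counts, a signal per gene that is not whole and not raw. DESeq2 1.26.0, Salmon 1.1.0 and R 3.6.2 are named, with the build GRCm38, per the submitters' processing notes. The annotation, the gene summary and the normalization model were not given in the sources used here, and it is also unknown whether both fractions were normalized together. Of the identifiers, 21465 matched GENCODE M21 (GRCm38), which gave coordinates and for each gene the share of its 31-base sequences found in another gene. Reads could not be recovered: of values worth at most 20 reads, 32.3% to 45.8% came within 0.1 of a whole read, so no count test was run. The depths given are estimates from the step between low values.

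The values were fitted as log2(value + 1) with limma 3.58.1 in R 4.3.3 (pseudocount 1, variance trend, two-sided, Benjamini-Hochberg over 16962 genes, threshold 0.05). A block for each library number within genotype paired input with polysome, which equals a fit of 6 ratios with 4 residual degrees of freedom. Fold changes on this scale understate those of low genes. Intervals are 95% intervals of this fit. The fit was also run on simulated data with known changes. Those data had independent normal noise and no effect of library number shared by the genotypes. That run therefore cannot show how the fit behaves on the deposited values.

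The pairing rests on shared numbers in the labels and on the data: the correlation of deviations from group means was 0.282 to 0.45 between input and polysome of one number and genotype. It was not computed for different numbers. The correlation of ratio deviations between WT and TG bears on the number across genotypes and not on this pairing. It was 0.25, 0.149 and 0.355 for one number, against -0.259 to 0.0346 for different numbers. Deviations from a group mean sum to 0, so positive values for one number force lower values for different numbers.

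Named genes were Shank3, the 10 genes of smallest p in each direction (mean log2 level of at least 5, no overlap of the genotypes, no predicted or pseudogene symbols), and the member of smallest p in each of 32 gene lists, of which 1 is not reported here. Genes named beyond these, such as Mtor, Rptor, Kif5a, Homer1, Camk2a and mt-Nd1, were chosen after their values were seen. The comparison, the lists and the rules were chosen with earlier results of these data known. Alternatives were other pairings, TMM scaling (own code), scaling to the nuclear-encoded total, pseudocounts of 0.5 and 10, other filters, no variance trend, and each library number left out. Leaving out genes sharing over 50% of their sequence, leaving out a number in both genotypes, and a threshold of 0.1 were added after the data were examined.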

Additional observations from a re-analysis of the deposited data

Results flagged for a closer look

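In 8 of the named genes every WT ratio lay on one side of 0 and every TG ratio on the other. Where 0 falls depends on how the fractions were normalized, and a departure from 0 within a genotype was not tested. Some ratios lay close to 0, such as -0.020 for Rps6kb2 in WT number 2 and 0.037 for Spink10 in WT number 1. None of the 8 genes passed the limma test of the difference between genotypes (adjusted p of 1), and the genes had been chosen for ratios that do not overlap. Over all 16962 genes, 2.38% had non-overlapping ratios that were higher in TG and 1.72% ones that were lower. These shares are for the wider property of no overlap. Genes with the genotypes on opposite sides of 0 were not counted over all genes, so the 8 have no background share.

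Ratios below 0 in WT and above 0 in TG were seen for Rps6kb2 (difference in log2 ratio 1.298), Stat4 (1.373), Cavin1 (0.9383), Nfxl1 (0.9219) and Fbxw17 (0.7549). Ratios above 0 in WT and below 0 in TG were seen for Spink10 (-2.388), Baiap2l2 (-1.985) and Lhcgr (-1.555). The genotype difference in input was larger in size than that on polysomes in each of these genes.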

How the results depend on the processing

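The count of called genes was 0 in every fit of all libraries: without the replicate block, with the replicate block across genotypes, with TMM or nuclear scaling, with pseudocounts of 0.5 or 10, with either filter, without the variance trend and without genes sharing over 50% of their sequence. It was also 0 at a threshold of 0.1. With a library number left out it ranged from 0 to 2. Without TG number 1 there was 1 call (Gm2223, 100% shared sequence), without TG number 2 there were 2 (Gm13835, 100%, and Gm42742, 93%), which were also the 2 called without number 2 of both genotypes, and without number 3 of both there was 1 (Gm42418). The paired design moved the count at an unadjusted p below 0.05 from 94 without the replicate block to 209, and to 456 with the replicate block across genotypes. That count was 412 with any value above 0, 103 with values of 50, 374 without the trend and 386 without TG number 1. Genes without overlap numbered 1086 with any value above 0 and 436 with values of 50, against 696. They were not counted without pairing or with a library left out. The Shank3 difference ranged from -0.25 to 0.088 with numbers left out, reversing as described above. It was -0.042 with either replicate block, which by design cannot change the estimate. Other reversals came with left-out numbers: Slc18a3 ranged from -0.26 to 0.065, mt-Rnr1 from -0.62 to 0.0055, Alas2 from -0.20 to 0.71 and Slc17a6 from -0.0073 to 0.37. Other values of named genes, 899 in all, kept their direction and did not pass the test, a count that includes settings which cannot change the estimate. The cause of these changes was not tested. List medians moved past the spread between replicates for structural small RNAs (0.183 without WT number 1), and for medium spiny (-0.068) and interneuron markers (-0.135) without WT number 3. Precision was lowest for low genes, with no interval within 2-fold below a mean log2 level of 3.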

Other observations

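By annotated gene type, the 15043 protein-coding genes had a median difference in log2 ratio of 0.019, with 168 (1.12%) at an unadjusted p below 0.05. The 541 lincRNAs had a median of -0.047 with 10 such genes (1.85%), and the 411 antisense RNAs one of -0.040 with 6 (1.46%). Their median standard errors were 0.24, 0.55 and 0.55, so the noncoding classes were measured with less precision. The 146 processed pseudogenes had 7 such genes (4.79%) and a median standard error of 0.74.

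Neat1, the RNA scaffold of nuclear paraspeckles, had log2 ratios of -0.58, -0.44 and 0.78 in WT and 0.029, 0.16 and 1.96 in TG. TG exceeded WT in each number, but the genotypes overlapped and the difference was 0.80 ± 0.56 (SE). Gjb6, the astrocytic connexin 30, had 0.15, 0.52 and 0.37 in WT and 0.36, 0.78 and 0.82 in TG, a difference of 0.31 ± 0.19 (SE), again higher in TG in each number, although 9 of the 15 astrocyte markers were lower and their median was -0.017. Aspa, an oligodendrocyte enzyme that breaks down N-acetylaspartate, had 0.19, -0.27 and -0.21 in WT and 0.15, 0.32 and 0.30 in TG, a difference of 0.35 ± 0.19 (SE), although 10 of the 19 oligodendrocyte markers were lower and their median was -0.013. Gjb6 and Aspa are the members of smallest p in their lists. None of these passed the limma test (adjusted p of 1).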
